A study of Gallus gallus with 4 samples.

Results

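Stanniocalcins and the insulin-like growth factor (IGF) axis were followed in granulosa cells of the chicken ovary, the cell layer that surrounds the yolk-filled oocyte. The set was defined by gene name in the authors' tables and covered STC1 and STC2, the protease PAPPA, the ligands IGF1 and IGF2, the receptor IGF1R, and the binding proteins IGFBP2, IGFBP3, IGFBP4 and IGFBP5. Of these 10 names, 8 were found among 19309 gene rows, and IGF1 and IGF1R were missing under those names. Poly-A selected RNA had been sequenced from hens (Gallus gallus) aged 10 to 15 months, from proximal cells, which lie next to the germinal disc (the spot on the yolk where the nucleus of the oocyte lies), and from distal cells, which lie away from it. The 4 groups were F1 proximal, F1 distal, F5 proximal and F5 distal cells, with 1 library each, where F1 is the follicle nearest to ovulation and F5 an earlier one of the preovulatory hierarchy. No treatment or genetic change is labelled, and the number of hens or follicles behind each library is not labelled.

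IGFs act through IGF1R, a receptor tyrosine kinase, and most IGF outside cells is held by binding proteins. PAPPA (pappalysin) is a secreted metalloprotease that, in mammals, cuts IGFBP4 and IGFBP5 and so frees IGF. In humans and mice STC1 and STC2 bind PAPPA and block this cut. In mammalian ovaries this system is known for its part in the growth and selection of follicles, where IGF works together with follicle-stimulating hormone.

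Levels are given in FPKM, which relates the fragments of a gene to its length and to the total of the library, and a fold is a ratio of FPKM with a 95% exact (Clopper-Pearson) interval from the reads recovered behind it. The totals that scale FPKM were inferred from ratios of FPKM between libraries, and lay between 13948790 and 18020270 reads per library. Intervals cover counting error only, and with 1 library per group no pair of libraries has a replicate check. Position differences of the stanniocalcins were known when the set was drawn up, so differences between proximal and distal cells are descriptions with no test. F1 and F5 were compared in a limma fit of position and follicle over the 11203 genes that averaged 1 FPKM or more, on the log2(FPKM + 1) scale, which understates the change of low genes. Here proximal and distal cells stand in as the pair of libraries of each follicle, and 1 residual degree of freedom is left. For each gene that residual is how far its F1 to F5 difference differs between the positions. The p-values reflect this spread in these 4 libraries, moderated over all genes, and not the spread between hens. This spread may be technical. In bulk RNA, fewer cells of a type and less RNA per cell cannot be told apart.

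Granulosa markers were present, and the 15 fixed ones summed to 90965 FPKM in F1 proximal and 121045 FPKM in F1 distal libraries, against 22274 FPKM in F5 proximal and 23163 FPKM in F5 distal libraries. Most of that sum was ZP3, an egg coat glycoprotein, and the other 14 summed to 8303 FPKM in F1 proximal and 9549 FPKM in F1 distal libraries, against 7894 FPKM in F5 proximal and 8347 FPKM in F5 distal libraries. Single markers went both ways. INHA was lower in F1, at 2915 and 3270 FPKM against 5100 and 5480 FPKM in F5. FOXL2 was higher, at 1594 and 1391 FPKM in F1 against 1055 and 861 FPKM in F5. So was INHBA, at 211 and 238 FPKM in F1 against 17.5 and 19.8 FPKM in F5. ZP1 was under 1 FPKM in every library. By position AMH was higher in proximal cells, at 6.96 against 0.508 FPKM in F1 and 21.2 against 1.55 FPKM in F5. WT1 was too, at 4.51 against 0.0780 FPKM in F1 and 4.62 against 0.376 FPKM in F5. CYP11A1 was lower in proximal cells, at 322 against 633 FPKM in F1 and 133 against 202 FPKM in F5. Theca and stroma markers summed to between 8.68 and 21.5 FPKM, with 7 of the 11 found under 1 FPKM throughout. Their top gene COL1A2 was alike in both follicles (F1 proximal 11.8, F1 distal 6.55, F5 proximal 11.7, F5 distal 6.93 FPKM). The other 10 summed higher in F5, mostly through MYH11 and CYP17A1 (F1 proximal 2.31, F1 distal 2.14, F5 proximal 9.82, F5 distal 8.12 FPKM). Red blood cell markers summed to at most 1.14 FPKM. Endothelial markers, mostly CLDN5 and EGFL7, summed to 181.6 FPKM in F1 proximal and 158.1 FPKM in F1 distal libraries. In F5 the sums were 109.9 FPKM in proximal and 62.6 FPKM in distal libraries. Without CLDN5 they summed to between 49.2 and 79.0 FPKM, and CDH5, KDR, FLT1, TEK and VWF stayed under 1 FPKM in every library. EMCN was higher in proximal than distal libraries, at 3.67 against 0.116 FPKM in F1 and 10.6 against 0.986 FPKM in F5. ENG was too, at 7.40 against 0.111 FPKM in F1 and 11.5 against 0.447 FPKM in F5. EGFL7 lay between 44.5 and 51.2 FPKM and TIE1 between 3.04 and 5.10 FPKM. Leukocyte markers summed to 158.1 and 137.8 FPKM in F1 and to 67.7 and 66.2 FPKM in F5 cells, nearly all from the row named II, which RefSeq lists as CD74; the other 7 of the 8 found were under 1 FPKM, and SPI1 and CD4 were at 0. Oocyte and germinal disc markers followed position, at 21.1 FPKM in F1 proximal against 0.573 FPKM in F1 distal cells and at 46.7 FPKM in F5 proximal against 3.77 FPKM in F5 distal cells. The part of these marker shifts in the results below was not tested.

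Across the set, STC1, IGFBP5, IGFBP3 and PAPPA rose in F1 and IGF2 and IGFBP2 fell, while STC2 and IGFBP4 were not called. That is 4 of 8 members higher and 2 of 8 lower in the limma fit, where 10.4% of all genes tested rose and 35.8% fell. This balance depends on scaling: 1168 genes rose and 4010 fell in FPKM as deposited, whereas under median-ratio scaling, which sets the typical gene equal between libraries, 2169 rose and 1896 fell, with 4 members higher and 1 lower. PAPPA and IGFBP3 averaged under 1 FPKM in F5 and passed the filter on low values through F1 alone, so some difference was built into their selection; without that filter both were still called (limma adjusted p = 0.0297 and 0.0308). Counting differences of 2-fold or more in FPKM + 1, in either direction, 5 of 8 differed between F1 and F5 in proximal cells, where 14.3% of genes did, and 5 of 8 in distal cells, where 23.1% did. Proximal and distal cells differed 2-fold for 2 of 8 in F1, IGF2 and STC2, where 5.48% of genes did. In F5 1 of 8 did, STC1, where 2.5% of genes did. Under median-ratio scaling 3 of 8 differed 2-fold in F1, where 4.92% of genes did. The STC1 ratio of proximal over distal cells was then 0.454 in F1 and 0.455 in F5. Nothing is read from the position counts, since position differences took part in the choice. The follicle counts are a description too, since the members were chosen with earlier results of these data known.

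**Figure D1:**
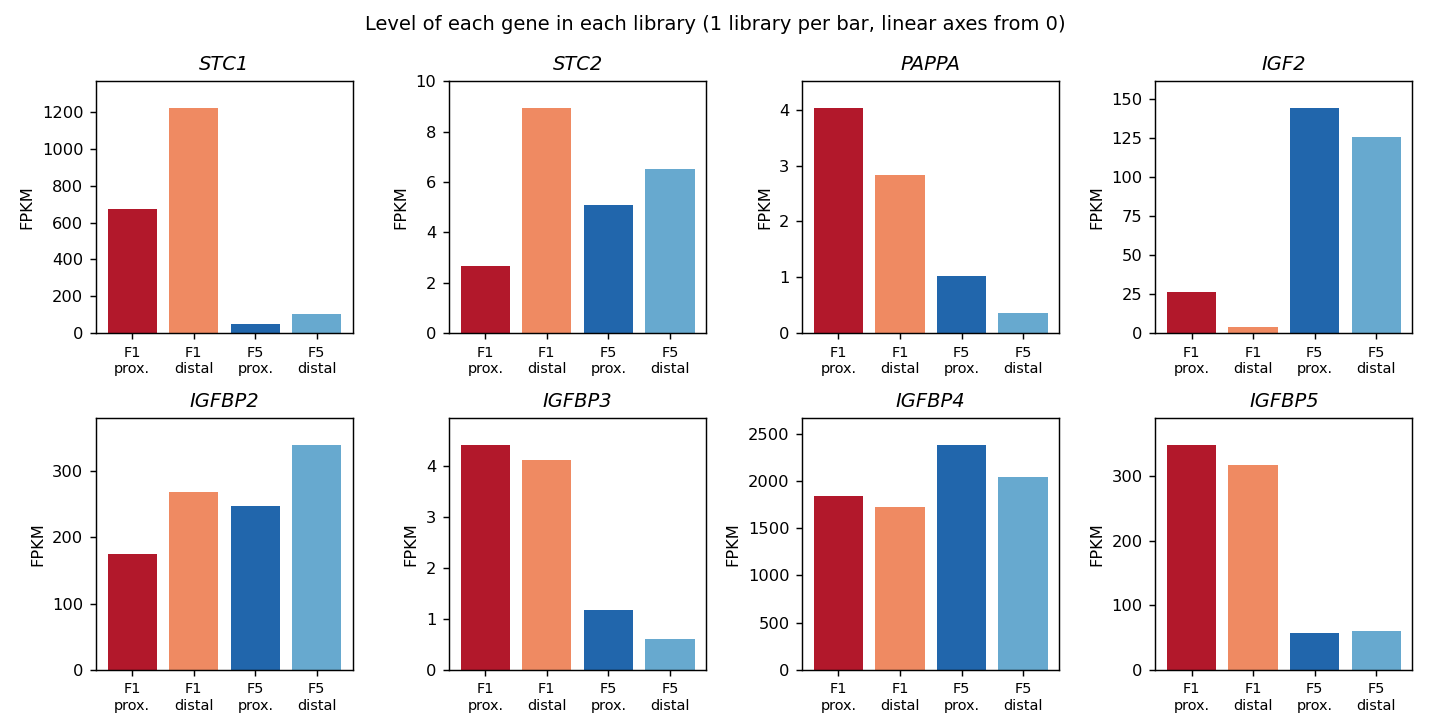
FPKM of each of the 8 genes in the 4 libraries, 1 bar per library with no error bar, on linear axes from 0 that differ between panels. STC1 and IGFBP5 stand high in both F1 libraries, IGF2 stands high in both F5 libraries, and STC2 is lowest in F1 proximal cells at 2.65 FPKM.

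STC1 (ENSGALG00000000364, chromosome 22, 1142287 to 1149360 in the authors' coordinates, plus strand), a secreted glycoprotein hormone first known for calcium control in fish, had 672.1 FPKM in F1 proximal and 1221 FPKM in F1 distal cells, against 51.0 FPKM in F5 proximal and 103.3 FPKM in F5 distal cells. The F1 libraries lay far above the F5 libraries with no overlap, and within each follicle the distal library was the higher one. STC1 rose in F1, with a log2 difference of 3.62 (SE 0.0943, limma adjusted p = 0.00544). The fold over F5 was 13.2 in proximal cells (12.2 to 14.3) and 11.8 in distal cells (11.2 to 12.5). Median-ratio scaling made it 16.4 in proximal and 16.4 in distal cells, both outside their intervals. Among all rows of the table STC1 ranked 93rd in F1 proximal and 56th in F1 distal cells, against 1629th in F5 proximal and 706th in F5 distal cells. Proximal cells had 1.82-fold less than distal cells in F1 (1.77 to 1.87) and 2.03-fold less in F5 (1.85 to 2.23), so that the order from high to low was F1 distal, F1 proximal, F5 distal and F5 proximal, with each step beyond counting error.

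STC2 (ENSGALG00000002893, chromosome 13, 8561504 to 8571173, minus strand), the paralog that in humans binds PAPPA covalently, was a low transcript. Its levels were 2.65 FPKM in F1 proximal and 8.94 FPKM in F1 distal cells, against 5.07 FPKM in F5 proximal and 6.51 FPKM in F5 distal cells, on 57, 149, 101 and 135 reads. Here the F1 libraries held both the lowest and the highest value, and the follicles overlapped. The log2 difference of F1 minus F5 was -0.17 (SE 0.318) and was not called (limma adjusted p = 0.678). In proximal cells F1 was 1.92-fold lower than F5 (1.37 to 2.70), whereas in distal cells F1 was 1.37-fold higher (1.08 to 1.75). Under median-ratio scaling the distal fold was 1.90, outside its interval. The F1 over F5 ratio in proximal cells moved from 0.522 to 0.647, within its interval. Proximal cells had 3.38-fold less than distal cells in F1 (2.47 to 4.67) and 1.28-fold less in F5, where the interval of 0.984 to 1.68 includes no difference. F5 distal and F5 proximal cells are therefore not separated in the order of levels.

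Between the paralogs, per length, STC1 stood 253.9-fold above STC2 in F1 proximal and 136.6-fold above it in F1 distal cells, against 10.04-fold in F5 proximal and 15.9-fold in F5 distal cells. Summed, the stanniocalcins came to 674.8 FPKM in F1 proximal and 1230.4 FPKM in F1 distal cells, against 56.0 FPKM in F5 proximal and 109.8 FPKM in F5 distal cells. Nearly all of that sum was STC1 in F1.

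PAPPA (ENSGALG00000007079, chromosome 17, 3040970 to 3209266, plus strand), the protease that stanniocalcins inhibit, had 4.03 FPKM in F1 proximal and 2.82 FPKM in F1 distal cells, against 1.02 FPKM in F5 proximal and 0.364 FPKM in F5 distal cells. These values rest on 356 and 193 reads in F1 and on 83 and 31 reads in F5. The F1 libraries were above the F5 libraries without overlap. PAPPA rose with a log2(FPKM + 1) difference of 1.40 (SE 0.164, limma adjusted p = 0.0134), with FPKM ratios of 3.96 in proximal (3.11 to 5.10) and 7.74 in distal cells (5.28 to 11.7). Its position order was the opposite of the stanniocalcins, with proximal cells 1.43-fold higher in F1 (1.19 to 1.71) and 2.79-fold higher in F5 (1.83 to 4.36). Under median-ratio scaling these ratios were 1.18 in F1, outside its interval, and 2.57 in F5. The oocyte and germinal disc markers named above were also higher in proximal cells. In FPKM the summed stanniocalcins were 167.4 times PAPPA in F1 proximal and 435.9 times PAPPA in F1 distal cells, against 55.1 times in F5 proximal and 301.4 times in F5 distal cells. For STC2 alone the ratio to PAPPA was 0.657 in F1 proximal and 3.17 in F1 distal libraries, against 4.99 in F5 proximal and 17.9 in F5 distal cells. These are ratios of transcript levels and say nothing of protein. They leave out PAPPA2, the pappalysin paralog described below. It had 5.28 FPKM in F5 proximal and 7.24 FPKM in F5 distal cells, more than PAPPA, and under 1 FPKM in both F1 libraries. How the ratios compare between follicles thus holds for PAPPA alone, and the F5 distal ratios rest on 31 PAPPA reads.

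**Figure D2:**
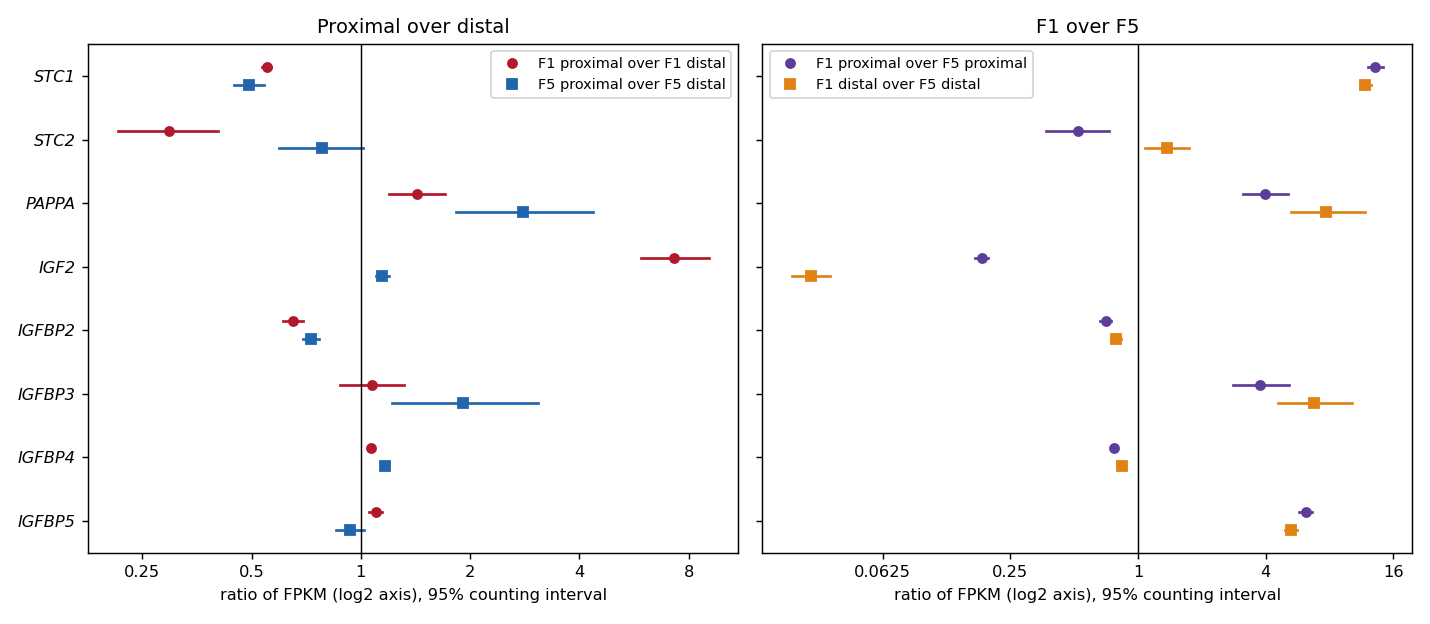
Ratios of FPKM for the 8 genes on log2 axes, with 95% counting intervals as lines; the left panel shows proximal over distal cells in F1 (circles) and F5 (squares), the right panel F1 over F5 in proximal (circles) and distal cells (squares). STC1 lies left of 1 for position and right of 1 for follicle in both pairs, STC2 lies on both sides of 1 for follicle, and IGF2 has a wider position ratio in F1, at 7.31-fold, than in F5, at 1.15-fold.

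Of the ligands, IGF2 (ENSGALG00000006555, chromosome 5, 13148583 to 13163279, plus strand) had 26.5 FPKM in F1 proximal and 3.63 FPKM in F1 distal cells, against 144.4 FPKM in F5 proximal and 126.0 FPKM in F5 distal cells. The F5 libraries lay above both F1 libraries, and F1 distal cells were the lowest. IGF2 fell in F1, with a log2 difference of -3.59 (SE 0.606, limma adjusted p = 0.0199). The ratio to F5 was 5.45-fold lower among proximal cells (5.08 to 5.85), and 34.7-fold lower among distal cells (28.4 to 42.9). Proximal cells were 7.31-fold higher than distal cells in F1 (5.93 to 9.09) and 1.15-fold higher in F5 (1.10 to 1.19). Median-ratio scaling made these ratios 6.03 in F1 and 1.06 in F5, the latter outside its interval. Whether position acted differently in F1 and F5 was not tested, since the residual degree of freedom of the fit holds that difference. Among all rows IGF2 ranked 2771st in F1 proximal and 7855th in F1 distal cells, against 484th in F5 proximal and 569th in F5 distal cells.

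No row carried the name IGF1, but 2 rows were named IGF-I, a synonym that RefSeq gives for IGF1. The row on chromosome 1 (ENSGALG00000012755, 55432530 to 55480957) is described as insulin-like growth factor I in the table, and its 6 nearest named neighbours are also neighbours of IGF1 in RefSeq (GRCg7b). It was listed at 0.0696 FPKM in F1 proximal cells and at 0 in F1 distal, F5 proximal and F5 distal cells. The number of reads behind that level cannot be recovered for a gene above 0 in 1 library, so no limit is given for the libraries at 0. IGF2 was thus the ligand transcript with measurable levels, beside a trace of IGF1, the growth hormone dependent ligand.

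The other row named IGF-I (ENSGALG00000007039, chromosome 10, 16180774 to 16320955, minus strand) is described as an insulin-like receptor tyrosine kinase, and its 6 nearest named neighbours are those of IGF1R in RefSeq. Taken as the IGF1R locus, it had 93.6 FPKM in F1 proximal and 76.2 FPKM in F1 distal cells, against 71.3 FPKM in F5 proximal and 68.9 FPKM in F5 distal cells. The F1 libraries were slightly higher with no overlap, and the log2 difference of 0.26 (SE 0.109) was not called (limma adjusted p = 0.114), but under median-ratio scaling it was 0.65 and was called (limma adjusted p = 0.0126). Proximal cells were 1.23-fold higher in F1 (1.19 to 1.27) and 1.03-fold higher in F5, where the interval of 0.996 to 1.07 includes no difference. The F1 ratio depends on scaling. It is 0.297 in log2, from which median-ratio scaling subtracts 0.277, and the authors' own log2 fold change was 0.06 in F1. IGF2R, the mannose 6-phosphate receptor, which in mammals also clears IGF2 but in birds lacks that binding, had 77.9 FPKM in F1 proximal and 86.5 FPKM in F1 distal cells, against 53.1 FPKM in F5 proximal and 57.5 FPKM in F5 distal cells, and rose by 0.56 (SE 0.0912, limma adjusted p = 0.0187).

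Among the binding proteins IGFBP4 (ENSGALG00000028931, chromosome 27, 4442296 to 4446537, plus strand), a PAPPA substrate in mammals, was the most abundant, at 1841 FPKM in F1 proximal and 1724 FPKM in F1 distal cells, against 2384 FPKM in F5 proximal and 2043 FPKM in F5 distal cells. It ranked between 26th and 32nd of all rows in every library. The F5 libraries were higher without overlap, but the log2 difference of -0.31 (SE 0.105) was not called (limma adjusted p = 0.0773), and under median-ratio scaling it was 0.08.

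IGFBP5 (ENSGALG00000011468, chromosome 7, 22733555 to 22750389, plus strand), another PAPPA substrate, which also binds extracellular matrix, had 348.6 FPKM in F1 proximal and 317.5 FPKM in F1 distal cells, against 56.4 FPKM in F5 proximal and 60.3 FPKM in F5 distal cells. The F1 libraries stood well above the F5 libraries, and within each follicle the positions were close. IGFBP5 rose with a log2 difference of 2.49 (SE 0.105, limma adjusted p = 0.00544), 6.18-fold in proximal (5.77 to 6.64) and 5.26-fold in distal cells (4.91 to 5.64). Median-ratio scaling made these folds 7.67 in proximal and 7.29 in distal cells, both outside their intervals.

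IGFBP2 (ENSGALG00000011469, chromosome 7, 22757948 to 22808688, minus strand), which binds both IGFs, lies 7558 bases from IGFBP5 on the opposite strand. It had 174.4 FPKM in F1 proximal and 268.3 FPKM in F1 distal cells, against 247.1 FPKM in F5 proximal and 339.8 FPKM in F5 distal cells. Unlike its neighbour it was lower in F1 at each position, although the follicles overlapped, and like STC1 it was higher in distal cells. IGFBP2 fell with a log2 difference of -0.42 (SE 0.096, limma adjusted p = 0.0338), but the difference was -0.03 under median-ratio scaling (limma adjusted p = 0.856), and the call was also lost without a filter on low values (limma adjusted p = 0.0538) and without a position term (limma adjusted p = 0.260). Proximal cells were 1.54-fold lower than distal cells in F1 (1.45 to 1.64) and 1.38-fold lower in F5 (1.31 to 1.45).

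IGFBP3 (ENSGALG00000012439, chromosome 2, 55011807 to 55031149, minus strand), the main IGF carrier of blood in mammals, was low, at 4.43 FPKM in F1 proximal and 4.12 FPKM in F1 distal cells, against 1.17 FPKM in F5 proximal and 0.612 FPKM in F5 distal cells. On 233 and 168 reads in F1 and 57 and 31 reads in F5, the F1 libraries were the higher ones without overlap. It rose with a log2(FPKM + 1) difference of 1.495 (SE 0.177, limma adjusted p = 0.0137), with FPKM ratios of 3.78 in proximal (2.82 to 5.14) and 6.74 in distal cells (4.58 to 10.2).

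**Figure D3:**
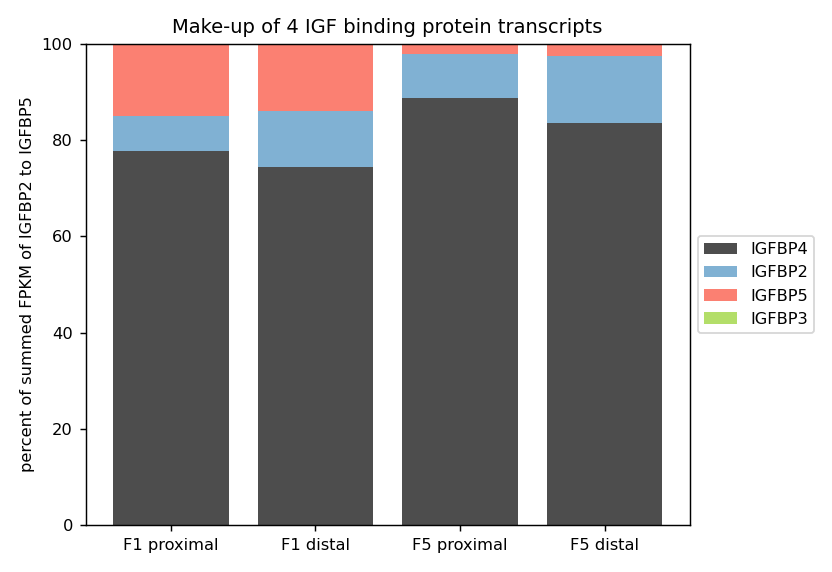
Share of the summed FPKM of IGFBP2, IGFBP3, IGFBP4 and IGFBP5 taken by each, in percent, 1 stacked bar per library from 0 to 100. IGFBP5 takes 14.7% and 13.7% in the F1 libraries, against 2.10% and 2.47% in the F5 libraries, and IGFBP3 is too thin to see, at no more than 0.187%.

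The 4 binding proteins summed to 2369 FPKM in F1 proximal and 2314 FPKM in F1 distal cells, against 2689 FPKM in F5 proximal and 2444 FPKM in F5 distal cells. IGFBP4 made up 77.7% of that sum in F1 proximal and 74.5% in F1 distal libraries, against 88.7% in F5 proximal and 83.6% in F5 distal cells. IGFBP5 held 14.7% in F1 proximal and 13.7% in F1 distal libraries, against 2.10% in F5 proximal and 2.47% in F5 distal cells. IGFBP2 had the larger share in distal cells, with 7.36% in F1 proximal against 11.6% in F1 distal cells and 9.19% in F5 proximal against 13.9% in F5 distal cells.

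Between positions IGFBP4 and IGFBP5 differed little, whereas IGFBP3 in F5 was further apart. IGFBP4 was 1.07-fold higher in F1 proximal than F1 distal cells (1.05 to 1.09) and 1.17-fold higher in F5 proximal than F5 distal cells (1.15 to 1.19). For IGFBP5 the F1 proximal level was 1.10-fold higher (1.06 to 1.14) and the F5 proximal level 1.07-fold lower (0.977 to 1.17). IGFBP3 had a proximal-to-distal fold of 1.07 in F1 (0.877 to 1.32) and of 1.92 in F5 (1.22 to 3.07). That F5 difference rests on 57 and 31 reads, was 1.77 under median-ratio scaling, and had a log2 fold change of 0.85 in the authors' deposited table. In the authors' deposited table the F1 log2 fold changes of proximal over distal cells were -0.13 for IGFBP3, -0.14 for IGFBP4 and -0.10 for IGFBP5, the opposite sign. Over 10732 genes the authors' deposited table lay a median of -0.24 from the log2 FPKM ratio in F1, with quartiles within rounding of that value, and over 11301 genes a median of -0.09 in F5. For STC1 the authors' deposited table gave -1.10 in F1 and -1.11 in F5, for STC2 -1.99 and -0.45, for PAPPA 0.28 and 1.39, and for IGF2 2.63 and 0.10, with the same signs as the FPKM ratios.

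Other carriers were looked up from a fixed list of 8, of which 6 were found and 3 kept. IGFBP7, a matrix protein that binds IGF weakly, had 829.4 FPKM in F1 proximal and 533.3 FPKM in F1 distal cells, against 787.6 FPKM in F5 proximal and 762.4 FPKM in F5 distal cells, and was not called (limma adjusted p = 0.336). IGFBP1 had 9 reads in F1 proximal and 0 in F1 distal libraries, against 3 in F5 proximal and 1 in F5 distal cells, and IGFALS, which holds IGF with IGFBP3 in blood, had at most 0.0328 FPKM. The RNA-binding IGF2BP2, which binds IGF2 messenger RNA in mammals, stayed between 88.8 and 94.1 FPKM (limma adjusted p = 0.767), although median-ratio scaling gave it a called log2 difference of 0.42 (limma adjusted p = 0.0341). IGF2BP1 had 0.647 FPKM in F1 proximal and 0.693 FPKM in F1 distal cells, against 1.64 FPKM in F5 proximal and 1.46 FPKM in F5 distal cells, and was not called (limma adjusted p = 0.0501); over its alternatives the adjusted p ran between 0.0244 and 0.165, with a call in 3 of 7. IGF2BP3 stayed under 1 FPKM and was not tested.

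A list of 9 further genes for binding protein proteolysis, 6 of them found and 5 kept, held 1 gene that rose and 2 that fell, beside 10.4% of all genes up and 35.8% down, so that nothing is read from the counts. PAPPA2, the pappalysin paralog that in humans cuts IGFBP3 and IGFBP5 and is also blocked by stanniocalcins, had 0.316 FPKM in F1 proximal and 0.461 FPKM in F1 distal cells, against 5.28 FPKM in F5 proximal and 7.24 FPKM in F5 distal cells. It fell with a log2(FPKM + 1) difference of -2.38 (SE 0.165, limma adjusted p = 0.0102), 16.7-fold in proximal (12.1 to 23.9) and 15.7-fold in distal cells (11.5 to 21.8), while PAPPA rose. PAPPA2 averaged 0.389 FPKM in F1 and passed the filter through F5 alone; without the filter it was still called (limma adjusted p = 0.0294). In F5 PAPPA2 was the higher pappalysin transcript, and in F1 PAPPA was.

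HTRA1, a secreted serine protease that in mammals cuts IGFBP5, had 115.0 FPKM in F1 proximal and 100.2 FPKM in F1 distal cells, against 3.59 FPKM in F5 proximal and 1.44 FPKM in F5 distal cells, and rose by 5.02 (SE 0.209, limma adjusted p = 0.00544). Its paralog HTRA3 had 24.1 FPKM in F1 proximal and 4.76 FPKM in F1 distal cells, against 152.9 FPKM in F5 proximal and 213.3 FPKM in F5 distal cells, and fell by 3.92 (SE 0.662, limma adjusted p = 0.0200). Like IGF2, HTRA3 was higher in proximal than distal cells in F1, by 5.07-fold (4.34 to 5.95), while in F5 it was 1.39-fold lower in proximal cells (1.35 to 1.44). ADAM9 (limma adjusted p = 0.118) and CTSD (limma adjusted p = 0.554), proteases with IGFBP5 or several binding proteins among their known substrates, were not called, at 28.3 to 43.1 FPKM and 103.2 to 138.2 FPKM, except that ADAM9 was called under median-ratio scaling, at 0.61 (limma adjusted p = 0.0186). ADAM12 had between 1 and 7 reads per library and was not tested.

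**Figure D4:**
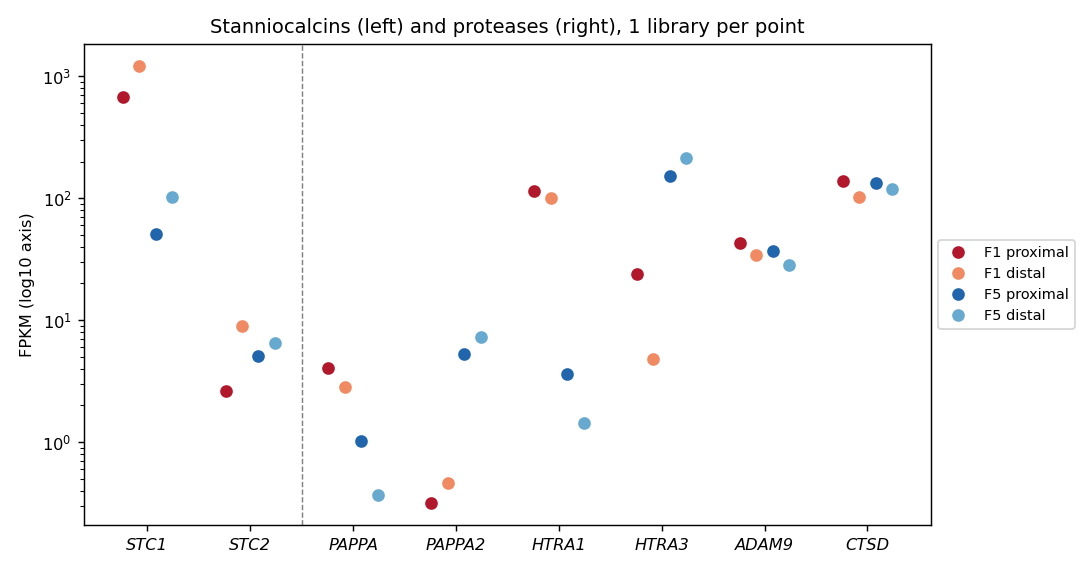
FPKM of the stanniocalcins and of 6 proteases on a log10 axis, 1 point per library. PAPPA and HTRA1 lie higher in F1, PAPPA2 and HTRA3 lie higher in F5, and ADAM9 and CTSD stay within a narrow band.

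Downstream of the receptor, a list of 41 signalling genes gave 29 found and 28 kept, of which 3 rose, 8 fell and 17 were not called in the F1 against F5 fit. These counts lie close to the shares of all genes, 10.4% up and 35.8% down, and under median-ratio scaling 8 rose and 3 fell. The list's median log2 difference of F1 minus F5 was -0.16 in proximal and -0.24 in distal cells, beside -0.27 and -0.40 over all genes, which median-ratio scaling moves to 0.00 at both positions. SOCS2, which damps growth hormone receptor signalling, rose by 1.07 (SE 0.229, limma adjusted p = 0.0299), with 18.5 FPKM in F1 proximal and 11.2 FPKM in F1 distal cells, against 11.1 FPKM in F5 proximal and 3.47 FPKM in F5 distal cells. SOS1, an activator of RAS, rose by 0.55 (SE 0.134, limma adjusted p = 0.0391), and IGF2R was the third gene that rose. Without a filter on low values SOCS2 (limma adjusted p = 0.0559) and SOS1 (limma adjusted p = 0.0647) lost their calls, as SOCS2 did without a position term (limma adjusted p = 0.171).

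Largest among the 8 that fell was PIK3R1, the regulatory subunit of phosphoinositide 3-kinase, with 17.0 FPKM in F1 proximal and 10.3 FPKM in F1 distal cells, against 43.6 FPKM in F5 proximal and 41.1 FPKM in F5 distal cells. It fell by 1.60 (SE 0.181, limma adjusted p = 0.0132). PDPK1, which activates AKT, fell by 0.90 (SE 0.116, limma adjusted p = 0.0144), PIK3CA, a catalytic subunit of the same kinase, by 0.89 (SE 0.155, limma adjusted p = 0.0211), and PTPN1, a phosphatase of insulin and IGF receptors, by 0.86 (SE 0.181, limma adjusted p = 0.0288). PTPN1 lost its call without the filter (limma adjusted p = 0.0530) and under median-ratio scaling (limma adjusted p = 0.0612). At 2-fold or more SOCS2 was the single gene of the list past 2-fold between positions in F5, at 3.21-fold higher in proximal cells (2.33 to 4.47), and none was past it in F1. That is 1 of 28 in F5, where 2.5% of all genes were past it, and 0 of 28 in F1, where 5.48% were.

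From a list of 9 genes of the growth hormone and gonadotropin axis, 7 were found and 6 kept, with 1 higher and 2 lower in F1, beside 10.4% of all genes higher and 35.8% lower. LHCGR, the luteinizing hormone receptor, rose by 4.09 (limma adjusted p = 0.00544). FSHR, the follicle-stimulating hormone receptor, had 29.0 FPKM in F1 proximal and 16.05 FPKM in F1 distal cells, against 47.6 FPKM in F5 proximal and 43.3 FPKM in F5 distal cells, and fell by 1.04 (limma adjusted p = 0.0242; 0.0511 without a position term). JAK2, the kinase used by the growth hormone receptor, had 1.11 FPKM in F1 proximal and 0.583 FPKM in F1 distal cells, against 2.32 FPKM in F5 proximal and 1.93 FPKM in F5 distal cells, and fell by 0.77 (SE 0.172, limma adjusted p = 0.0323). It averaged 0.849 FPKM in F1 and passed the filter through F5 alone; without the filter it was called (limma adjusted p = 0.0476), but not with a pseudocount of 0.1 FPKM (limma adjusted p = 0.0581), under median-ratio scaling (limma adjusted p = 0.0809) or without a position term (limma adjusted p = 0.0657). GHR, the growth hormone receptor, was taken from the row on chromosome Z, where RefSeq places it, since a second row has the same name. It had 14.5 FPKM in F1 proximal and 15.6 FPKM in F1 distal cells, against 11.97 FPKM in F5 proximal and 12.03 FPKM in F5 distal cells (limma adjusted p = 0.0979), and was called under median-ratio scaling alone, at 0.67 (limma adjusted p = 0.0211). STAT5 (limma adjusted p = 0.208) and GH1, growth hormone itself at 3.10 to 5.11 FPKM (limma adjusted p = 0.245), were not called, and GHRHR had at most 4 reads.

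To place the stanniocalcins among other genes, their profiles over the 4 libraries were set against 6368 named genes that averaged 5 FPKM or more, by the Euclidean distance between log2(FPKM + 1) values centred on each gene's mean. Nearest to STC1 were SYNDIG1L at a distance of 0.324, ADAMTS3, a procollagen-cutting protease, at 0.536, KIAA0040 at 0.586, FGFRL1, a kinase-lacking FGF receptor, at 0.648, and ADCYAP1R1, the receptor of the peptide PACAP, at 0.696. SYNDIG1L had 103.0 FPKM in F1 proximal and 148.6 FPKM in F1 distal cells, against 6.70 FPKM in F5 proximal and 11.5 FPKM in F5 distal cells. These genes share with STC1 the F1 rise and the higher distal level that the distance selects for. ADAMTS3, FGFRL1 and ADCYAP1R1 were under 5 FPKM in both F5 libraries and passed that filter through F1 alone. Some F1 rise was thus built into their selection. ADCYAP1R1 had 7.45 FPKM in F1 proximal and 17.4 FPKM in F1 distal cells, against 0.175 FPKM in F5 proximal and 0.302 FPKM in F5 distal cells. At such low F5 levels the log2(FPKM + 1) scale understates its change.

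Nearest to STC2 were DRAXIN, an axon guidance protein, at a distance of 0.420, HPD, an enzyme of tyrosine breakdown, at 0.450, the RNA-binding ELAVL4 at 0.550, the transcription factor DMRT1 at 0.569 and MMD at 0.573. DRAXIN had 5.33 FPKM in F1 proximal and 11.2 FPKM in F1 distal cells, against 7.69 FPKM in F5 proximal and 8.11 FPKM in F5 distal cells. With 4 libraries such likeness is a description of these profiles.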

How the data were processed

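Per the file headers, the deposited values are FPKM per gene and library, computed by the authors, beside the authors' log2 fold changes of proximal over distal cells. The submitters' processing notes name TopHat2 2.0.12 and HTSeq 0.6.1 without saying which step each did. Coordinates are those of the authors' tables, whose build is not given in sources used here. Members and lists were chosen with earlier results of these data known. Whole reads were recovered for 16894 of 16894 genes above 0, as the smallest gene length that makes the reads of every library whole within 1e-06, so a gene's reads are understated where reads and length share a factor, and cannot be told for the 874 genes above 0 in 1 library. They sum to 97.3% to 97.9% of the totals. Those totals were inferred from the FPKM values too, so the shares are no check against a reported depth. FPKM depends on the library total, and a few abundant genes can shift all others. Fits were made with limma 3.58.1 under R 4.3.3 (moderated, with a mean-variance trend, Benjamini-Hochberg over 11203 genes, two-sided, threshold 0.05). On simulated data without position differences every changed gene was found, but false calls were several times the share the threshold allows. The changed genes there all had large changes and many reads, so finding them says nothing of small changes or of low genes. More of the calls may thus be false than the threshold states, and those near it are weak. The size rule is 2-fold with a pseudocount of 1 FPKM. Names were taken from the tables where RefSeq (GRCg7b) places the symbol on the same chromosome, and list symbols that the tables lack were matched through RefSeq synonyms; a name used for several rows went to the row on RefSeq's chromosome. The genes named were the members, the 5 nearest profiles of each stanniocalcin, up to 4 signalling genes in each direction with the largest change among those past the threshold, and the genes of the carrier, protease and hormone lists. Alternatives were other pseudocounts, filters and scalings, a fit without position, and voom weights on recovered reads.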

Additional observations from a re-analysis of the deposited data

Results flagged for a closer look

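STC2 differed between F1 and F5 in opposite directions at the 2 positions. In proximal cells it was 1.92-fold lower in F1, and in distal cells 1.37-fold higher. These sizes depend on scaling. The F1 over F5 ratio in proximal cells was 0.522 as deposited and 0.647 under median-ratio scaling. In distal cells that scaling made it 1.90, outside its counting interval. The difference between the positions was not tested, since each rests on 1 library per group.

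IGFBP5 had position ratios on opposite sides of 1 in the 2 follicles, in FPKM as deposited only. It was 1.07-fold lower in F5 proximal than F5 distal cells, with an interval that includes no difference, and 1.10-fold higher in F1 proximal than F1 distal cells. Under median-ratio scaling the proximal over distal ratio was 0.906 in F1 and 0.861 in F5, so both lay under 1. The authors' log2 fold changes, -0.10 in F1 and -0.19 in F5, also had the same sign. The difference between the follicles was not tested.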

How the results depend on the processing

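STC1, IGFBP5, PAPPA, IGFBP3 and IGF2 kept their direction and their call in every alternative in which they were tested (PAPPA and IGFBP3 are left out at a mean of at least 5 FPKM). Ranges of the log2 difference were 3.55 to 4.01 for STC1, 2.41 to 2.88 for IGFBP5, 0.56 to 2.33 for PAPPA, 0.66 to 2.26 for IGFBP3 and -3.76 to -3.09 for IGF2. IGFBP2 kept its call in 5 of 8 alternatives. STC2 (0.17, limma adjusted p = 0.728) and IGFBP4 (0.081, limma adjusted p = 0.647) turned direction under median-ratio scaling, and neither was called in any alternative. For the further genes named, the same settings were added after seeing the data. Among them IGFBP7 (0.17), CTSD (0.31) and STAT5 (0.0094) turned direction under median-ratio scaling and IGF2BP2 (-0.0088) under a common FPKM total, none of them called there. Under median-ratio scaling 2169 genes rose and 1896 fell, 1 member fell, and 8 signalling genes rose and 3 fell. Without a position term 2618 genes and 1 member fell. Without a filter 1 member fell, and 1 signalling gene rose and 5 fell. At a mean of at least 5 FPKM, 2 members rose, and 3 members differed 2-fold between F1 and F5 at each position. A pseudocount of 5 left 3 members at each position there, 0 members between positions in F5 and 1 in F1. A pseudocount of 0.1 gave 2 members in F5 and a common FPKM total 0. The signs of the F1 position ratios of IGFBP3 (0.886), IGFBP4 (0.881) and IGFBP5 (0.906), and of the F1 against F5 ratios in distal cells of IGFBP2 (1.09) and IGFBP4 (1.17), turned under median-ratio scaling. That scaling subtracts 0.277 from each log2 ratio of F1 proximal over F1 distal cells. From each log2 ratio of F1 distal over F5 distal cells it subtracts -0.470, and the ratios named turn by these shifts. Beyond the scaling shifts and the filter, which removes members from the count, the cause of the changes was not tested. Leaving out a library leaves the fit no residual degree of freedom. The fit compares F1 and F5 within position. No pairing by hen or follicle was made, since the hens and follicles behind each library are not labelled. PAPPA and IGFBP3 in F5 distal cells rest on 31 reads each, which limits their folds.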
